A study of Mus musculus with 3 samples.

Results

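The genes described here are 9 genes of blood clotting and clot removal: F3, F7, F10, Thbd, Procr, Plau, Plaur, Serpinb2 and Thbs1. They were taken by gene symbol from the 3 tables in which the authors compared lung macrophage libraries in pairs, and all 9 were listed in every table, out of 12880 genes listed in any. The libraries are bulk RNA sequencing of lung cells from LysM-GFP mice 6 to 8 weeks of age, on a C57BL/6 background, in which myeloid cells carry a green reporter. Cells that were GFP-positive, negative for Ly6g and positive for CD64 were collected at 0, 4 and 24 h of lung injury set off by nebulized LPS (lipopolysaccharide, from the outer wall of bacteria) in saline at 1 mg/ml. The digestion was 50 min at 37 degrees Celsius for every library. Each time point has 1 library. The treatment text is the same for all of them, so it is not known whether the 0 h mice were untreated. The column headings of the tables also name CD11b, which the sorting text leaves out, and nothing says whether animals were pooled. The reporter labels neutrophils and monocytes as well as macrophages, so the macrophage label rests on the 2 antibody gates.

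Clotting outside the vessel starts when tissue factor, the membrane protein encoded by F3, binds factor VII (F7). The complex activates factor X (F10), which generates thrombin and so fibrin. Thrombomodulin (Thbd) and the endothelial protein C receptor (Procr) turn thrombin towards the anticoagulant protein C pathway. Fibrin is removed by plasmin, which urokinase (Plau) generates on its receptor (Plaur), while the inhibitor PAI-2 (Serpinb2) blocks urokinase. Thrombospondin-1 (Thbs1) is a secreted matrix glycoprotein, also stored in platelets, that binds CD36 and CD47. Lung macrophages are a known source of several of these proteins, and fibrin in the air spaces is a feature of acute lung injury.

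At 4 h against 0 h, 5 of the 9 genes were at least 2-fold higher (Serpinb2, F3, Thbs1, Procr and F10) and 1 was at least 2-fold lower (F7). At 24 h against 0 h none was 2-fold higher and 1, Serpinb2, was lower. At 24 h against 4 h the same 5 genes were at least 2-fold lower and F7 was the 1 that was higher. Plau, Plaur and Thbd passed 2-fold in none of the 3 comparisons. Levels are reads per gene divided by a size factor for each library (normalized counts). A fold is the ratio of 2 such levels, with a 95% Clopper-Pearson interval that covers counting error only. With 1 library per time point no difference has a replicate check, and "higher" and "lower" describe these libraries.

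The shares of all genes past the same 2-fold limit give the background to those counts. At 4 h against 0 h, 15.2% of 12512 genes with a level at both times were higher and 14.3% lower. For 24 h against 0 h the shares were 4.95% higher and 9.1% lower of 12481 genes, so 1 lower gene among 9 is close to the background. For 24 h against 4 h they were 14.4% higher and 17.9% lower of 12684. With a 4-fold limit the members counted 3 higher (Serpinb2, F3 and Thbs1) and 0 lower at 4 h against 0 h, where 4.97% and 5.24% of all genes did. They counted 0 higher and 0 lower at 24 h against 0 h (0.681% and 1.92% of all genes), and 0 higher and 4 lower, Procr besides the former 3, at 24 h against 4 h (3.84% and 5.79%). By the log2 fold changes of the authors' deposited tables, which are smaller in size, 4 members were at least 1 higher and 1 lower at 4 h against 0 h (8.86% and 9.02% of all genes). In the authors' deposited tables none passed this limit at 24 h against 0 h (0.539% and 2.14% of all genes), and 1 was higher and 5 were lower at 24 h against 4 h (7.26% and 10.2%). The median log2 ratio of the 9 genes was 1.08, -0.44 and -1.52 in these 3 comparisons, against 0.00 over all genes in each. The comparisons share libraries, so the 4 h library alone enters both of those in which this median lay farthest from that of all genes. Not all members did so, since Plau and Plaur ranked 7476 and 6194 of 12512 at 4 h against 0 h. The members were also chosen with earlier results of these data known.

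**Figure D1:**
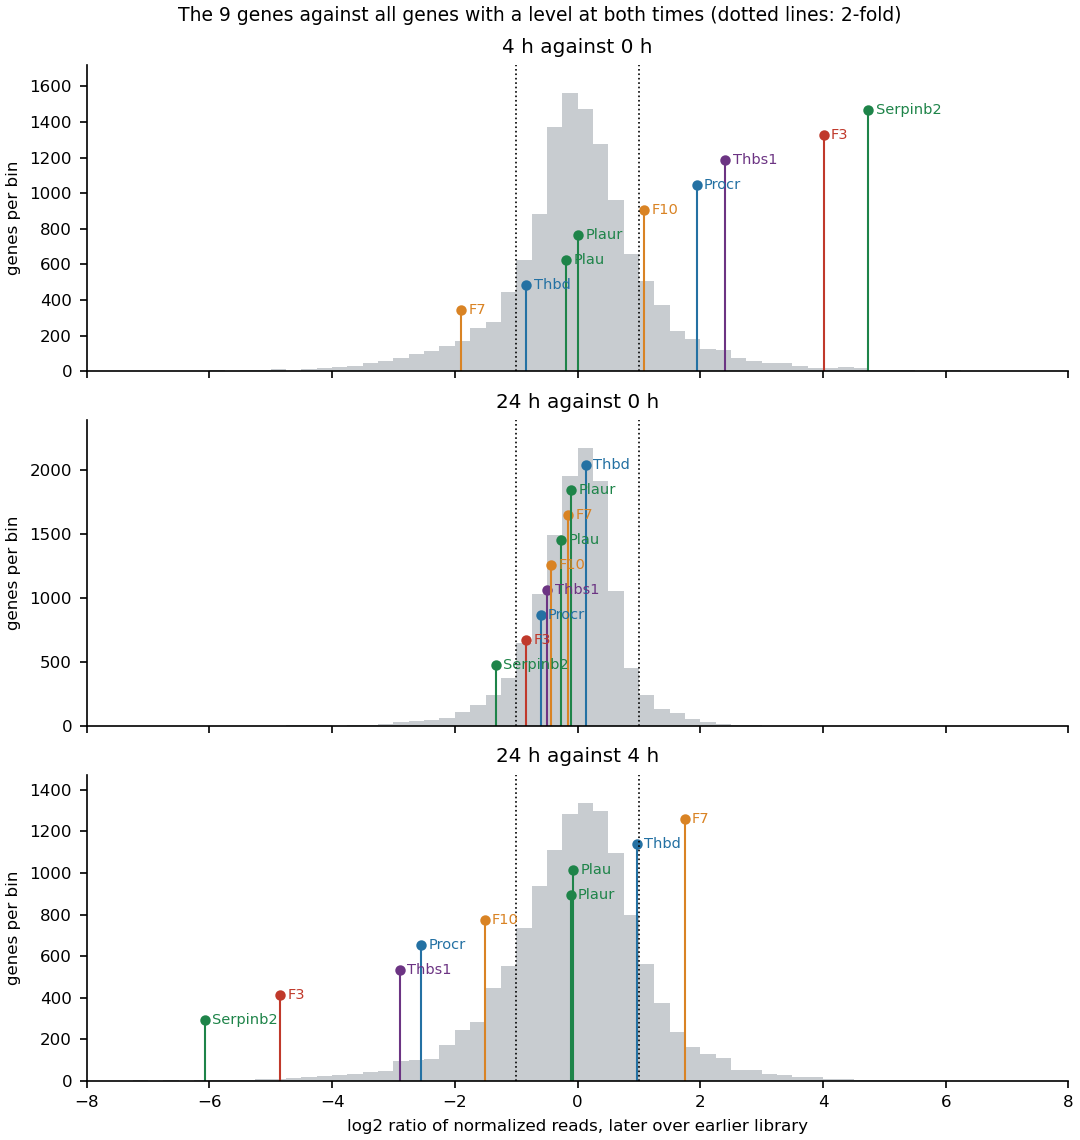
Grey bars count all genes by their log2 ratio of normalized reads in each comparison, and coloured stems (coloured by role; their height only separates the names) give the 9 genes. Serpinb2 and F3 lie far to the right at 4 h against 0 h and far to the left at 24 h against 4 h, F7 lies on the opposite side in both, and at 24 h against 0 h all but Serpinb2 lie within the dotted 2-fold lines.

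Promoters were compared for 6 of the 9 genes, those with an entry in the RefSeq promoter table (build GRCm38.p6, 250 bases before to 50 after the annotated start, sense strand). Thbd, Plau and Thbs1 had no entry. The set below shows the promoters of 4 of the 5 genes higher at 4 h (F3, Serpinb2, Procr and F10) and that of F7, the neighbour of F10, which was lower. Capitals mark every match to TGANTCA, the core of the AP-1 site with any middle base, and to GGNNTTTCC, a core of NF-kappaB sites, both searched on both strands.
F3: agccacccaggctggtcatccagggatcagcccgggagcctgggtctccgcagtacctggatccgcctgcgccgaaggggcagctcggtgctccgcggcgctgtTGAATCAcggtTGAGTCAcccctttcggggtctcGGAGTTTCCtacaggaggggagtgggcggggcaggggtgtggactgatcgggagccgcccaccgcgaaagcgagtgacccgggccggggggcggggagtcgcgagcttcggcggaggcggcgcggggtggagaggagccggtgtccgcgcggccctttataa
Serpinb2: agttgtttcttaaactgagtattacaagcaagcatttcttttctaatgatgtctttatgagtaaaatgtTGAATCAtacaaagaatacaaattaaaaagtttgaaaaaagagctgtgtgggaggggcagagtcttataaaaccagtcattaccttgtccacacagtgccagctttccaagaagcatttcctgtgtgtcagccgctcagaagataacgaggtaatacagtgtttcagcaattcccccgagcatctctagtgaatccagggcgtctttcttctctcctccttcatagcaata
Procr: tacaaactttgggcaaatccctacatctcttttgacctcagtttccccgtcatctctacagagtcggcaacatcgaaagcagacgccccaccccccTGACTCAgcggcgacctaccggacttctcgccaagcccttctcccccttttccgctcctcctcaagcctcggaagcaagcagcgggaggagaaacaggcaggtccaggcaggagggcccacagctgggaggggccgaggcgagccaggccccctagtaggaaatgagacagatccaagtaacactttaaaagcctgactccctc
F7: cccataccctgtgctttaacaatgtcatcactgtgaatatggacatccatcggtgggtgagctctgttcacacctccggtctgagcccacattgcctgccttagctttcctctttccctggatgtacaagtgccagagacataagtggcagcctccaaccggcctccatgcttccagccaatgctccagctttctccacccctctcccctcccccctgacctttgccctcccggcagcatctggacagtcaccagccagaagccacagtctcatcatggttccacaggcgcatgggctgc
F10: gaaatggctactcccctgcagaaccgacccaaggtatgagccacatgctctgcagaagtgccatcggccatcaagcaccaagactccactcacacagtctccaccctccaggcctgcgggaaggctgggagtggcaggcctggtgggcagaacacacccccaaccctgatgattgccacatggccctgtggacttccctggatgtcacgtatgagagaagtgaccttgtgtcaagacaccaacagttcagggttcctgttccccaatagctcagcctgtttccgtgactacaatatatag

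These windows are chr3:121723287-121723586 for F3, chr1:107511260-107511559 for Serpinb2 (of 2 annotated starts, the one at the start of the tables' locus), chr2:155750967-155751266 for Procr, chr8:13025784-13026083 for F7 and chr8:13037058-13037357 for F10, all on the plus strand. The F3 window held 2 AP-1 matches, TGAATCA at -146 to -140 and TGAGTCA at -135 to -129, counting the bases before the start downwards from -1. It also held the 1 NF-kappaB match of the set, at -112 to -104. Serpinb2 had 1 AP-1 match at -181 to -175 and Procr 1 at -154 to -148, while F10, also higher at 4 h, and F7 had neither motif. Plaur, whose level hardly differed between libraries, had 1 AP-1 match as well, at -69 to -63. Over 32851 promoters of the same length, 7.81% held TGANTCA and 5.82% held GGNNTTTCC, and the stricter AP-1 form TGACTCA, which is contained in TGANTCA, was in 5.2% of all and in F3, Procr and Plaur here. A match is a run of letters and not a binding site, and binding was not measured.

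Before the members' values, some properties of the libraries bear on every comparison. The whole reads behind the tables came to 24825976, 20379236 and 25135476 in the 0 h, 4 h and 24 h library, and the 9 genes took 0.251%, 0.498% and 0.238% of them. The libraries differed in sex-linked transcripts: Xist had 13705, 4 and 1 reads and the Y-linked Ddx3y 4, 3994 and 2357, so 0 h and the sex of the mice cannot be told apart. Of 8 pan-macrophage and sorting genes 3 were at least 2-fold higher at 4 h than at 0 h and 0 lower. Csf1r stood at 29976, 40025 and 29673 normalized counts, Cd68 at 21286, 13168 and 17754, and Fcgr1, encoding CD64, at 2479, 7237 and 2887. Lyz2, a lysozyme gene on the same list, had only 43, 16 and 21 reads, and the reason was not tested. Of 10 markers of classical monocytes, 9 were at least 2-fold higher at 4 h than at 0 h and 0 lower, and their summed level was 105544, 478672 and 92156. At 24 h 8 of the 10 were still higher than at 0 h and 1 lower, Fn1, which made up 87223 of the 0 h sum. Of 12 alveolar macrophage markers, 10 were lower at 4 h and 0 higher, with sums of 158350, 74002 and 114723. Of 10 neutrophil markers with a level at both times, all 10 were higher at 4 h, with sums over 11 of 5033, 39733 and 8141. Ly6g, the antigen gated out, had no value in the tables. In such bulk samples fewer cells of a type and less RNA per cell cannot be told apart. The part of these shifts in the results below was not tested.

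Tissue factor was scarce at 0 h and 24 h and higher at 4 h. F3 (chr3:121723537-121735052, mm10, plus strand) was counted in 22, 261 and 14 reads of the 0 h, 4 h and 24 h library, which is 20.5, 331 and 11.5 normalized counts. Only the 4 h library was high, and the counting intervals of 0 h (12.9 to 31.1) and 24 h (6.29 to 19.3) overlapped each other. The ratio of 4 h over 0 h was 16.1-fold (10.4 to 26.2), which placed F3 at rank 110 of 12512 genes. At 24 h it was 28.8-fold lower than at 4 h (16.9 to 53.4), and the ratio of 24 h over 0 h, 0.560 (0.265 to 1.14), could not be told from 1 at this depth. Lung epithelium also makes tissue factor, and of 9 epithelial markers 2 were higher and 1 lower at 4 h. Their summed level was 13525, 16206 and 15009.5. The 2 higher were the club cell gene Scgb1a1, at 90.6, 3977 and 105, and Sftpd, at 468, 1213.5 and 544. The 1 lower was Epcam, at 953, 159 and 334. Sftpc, the marker with the highest level, stood at 7817, 6079 and 9649, so the higher sum at 4 h rests on Scgb1a1. The part of epithelial RNA in the F3 level was not tested.

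F7 and F10 lie next to each other on chromosome 8 with 1502 bases between them, and their levels went opposite ways at 4 h. F7 (chr8:13026034-13035805, plus strand), the partner of tissue factor, had levels of 12235, 3290 and 11029.9 normalized counts in time order. Its 4 h library was the low one, 3.72-fold below 0 h (3.57 to 3.88), and at 24 h the level was 0.901 of that at 0 h (0.880 to 0.924). F10 (chr8:13037308-13056676, plus strand), the substrate of the tissue factor complex, had 7629.54, 16119.5 and 5638. Here 4 h was the high library, 2.11-fold above 0 h (2.05 to 2.17) and 2.86-fold above 24 h (2.78 to 2.94), and with libraries scaled to their total reads the first of these was 1.89. F7 and F10 are known mainly as liver products, and the hepatocyte genes Alb, Apoa1, Ttr and Serpina1a had no value in the tables, which list genes with a mean above 10 in a pair of libraries.

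**Figure D2:**
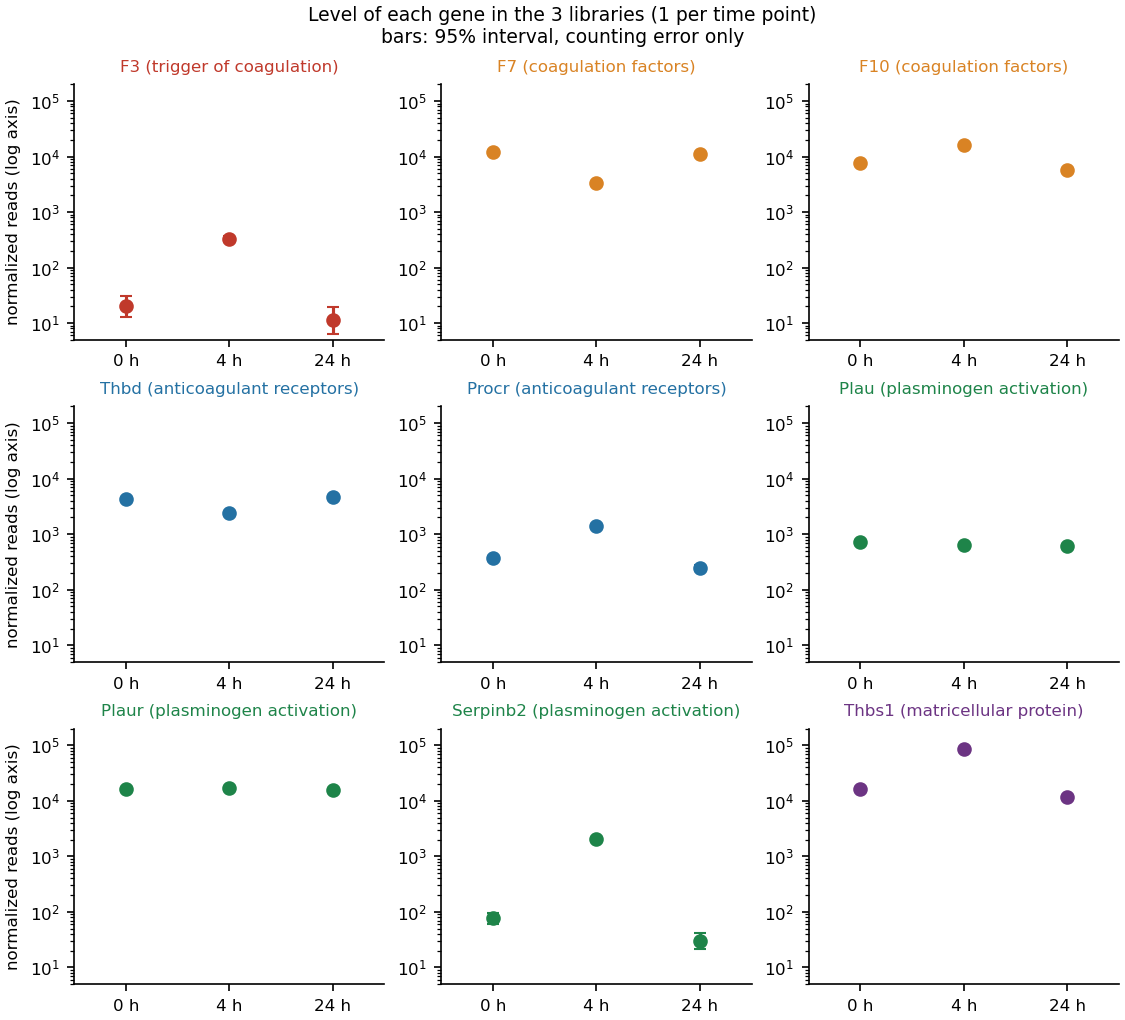
Points give the normalized reads of each gene in the 0 h, 4 h and 24 h library (log axis, 1 library per time point), with bars for the 95% counting interval, which are smaller than the points for abundant genes. F3, Procr, Serpinb2, Thbs1 and F10 are highest at 4 h, F7 and Thbd are lowest there, and Plau and Plaur stay nearly level.

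Of the anticoagulant receptors, Procr was higher at 4 h and Thbd was on the lower side. Procr (chr2:155751217-155755478, plus strand), which presents protein C for activation, had levels of 372, 1428 and 245 normalized counts. The 4 h library was 3.84-fold above 0 h (3.42 to 4.32) and 5.83-fold above 24 h (5.13 to 6.65), and 24 h lay at 0.659 of 0 h (0.565 to 0.768). Thbd (chr2:148404471-148408188, minus strand), the thrombin receptor of that pathway, had 4259, 2389 and 4676. It was 1.78-fold lower at 4 h than at 0 h (1.69 to 1.88) and 1.96-fold higher at 24 h than at 4 h (1.86 to 2.06), the latter being 2.45 when scaled to total reads and 2.02 with TMM scaling. Both receptors are also made by endothelium, whose marker list of 10 had 1 higher and 1 lower gene at 4 h, with Cdh5 at 207, 373 and 273 and Pecam1 at 374, 754 and 528. At 24 h against 4 h 5 of the 10 were higher and 0 lower. The summed level of the 10 was 4291, 2298 and 3344. Vwf, the 1 lower at 4 h, made up 3292, 564 and 1533 of it, so most of the sum at 0 h only. The part of endothelial RNA was not tested.

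Among the members in plasminogen activation, the inhibitor Serpinb2 differed widely between libraries while the protease Plau and its receptor Plaur did not. Other inhibitors and proteases of this step are not covered by that statement. Serpinb2 (chr1:107511510-107525600, plus strand), the urokinase inhibitor PAI-2 that macrophages keep mostly inside the cell, was counted in 82, 1609 and 37 reads, or 76.6, 2042 and 30.4 normalized counts. It was 26.7-fold higher at 4 h than at 0 h (21.4 to 33.7), rank 54 of 12512, and 67.2-fold lower at 24 h than at 4 h (48.5 to 95.8), rank 25 from the lowest of 12684. At 24 h it was also 2.52-fold lower than at 0 h (1.69 to 3.82), a ratio that rests on 37 and 82 reads and whose interval includes values under 2. Plau (chr14:20836662-20843388, plus strand), urokinase itself, stood at 728, 639.755 and 607 normalized counts. Its ratio of 4 h over 0 h was 0.878 (0.784 to 0.984) and that of 24 h over 4 h 0.949 (0.846 to 1.07). Plaur (chr7:24462483-24475968, plus strand), the urokinase receptor, stood at 16610.4, 16740.3 and 15490.2, with 1.01 (0.985 to 1.03) for 4 h over 0 h and 0.933 (0.914 to 0.952) for 24 h over 0 h.

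Thrombospondin-1 was the member that took most reads at 4 h. Thbs1 (chr2:118111876-118127133, plus strand) had levels of 16163, 85786 and 11505 normalized counts, from 17308, 67582 and 14001 reads. The 4 h library was the high one, 5.31-fold above 0 h (5.22 to 5.40) and 7.46-fold above 24 h (7.32 to 7.59), and 24 h was 1.40-fold below 0 h (1.37 to 1.44). Of its exon bases, 187 overlap Gm29233, annotated on the opposite strand, and it is not given whether reads were counted by strand. No other member's exons overlap another gene in GENCODE M21. Platelets also carry thrombospondin-1, and of 12 platelet and megakaryocyte markers 5 had no value in the tables, among them the platelet glycoprotein genes Gp1bb, Gp5, Gp6 and Gp9. The 7 with a value summed to 1818, 427 and 991, but Ppbp and Treml1 had a value at 24 h only. Clec1b alone stood at 1378, 90.1 and 338. Of the 5 with a level at each time 0 were higher and 3 lower at 4 h than at 0 h. For 1 of these 3, Gp1ba, the ratio rests on 30 and 11 reads and its interval (0.225 to 1.02) includes 1. The part of platelet RNA in the Thbs1 level was not tested.

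Levels of different genes were compared per kilobase of exon, with exon lengths from GENCODE M21, since the authors' annotation is not given. At 0 h the order of normalized counts per kilobase ran from Plaur (11029.5) through F7 (6582), F10 (2833), Thbs1 (2764), Thbd (1144), Plau (311), Procr (233) and Serpinb2 (37.2) to F3 (10.97). Of these neighbours only F10 and Thbs1 had overlapping counting intervals. At 4 h Thbs1 led (14669), ahead of Plaur (11116), F10 (5986), F7 (1769.86) and then Serpinb2 (992) and Procr (894), whose intervals overlapped. Thbd (642), Plau (273) and F3 (177) followed, so F3 was last in each of the 3 libraries. The 24 h order was that of 0 h, from Plaur at 10286 down to F3 at 6.15, with no overlapping neighbours.

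Ratios between 2 genes of 1 library do not depend on how libraries are scaled, and 6 such ratios were taken, per kilobase of exon. F7 was above F10 at 0 h, 2.32 to 1 (2.26 to 2.39), and at 24 h, 2.83 to 1 (2.75 to 2.92). At 4 h the order was turned, with F10 3.38-fold above F7 (3.24 to 3.53), a 7.86-fold change of the ratio from 0 h. F3 stood at 0.00959 (0.00601 to 0.0145) of Thbd at 0 h, 0.276 (0.241 to 0.314) at 4 h and 0.00489 (0.00267 to 0.00822) at 24 h. The same gene stood at 0.00167, 0.1000 and 0.00104 of F7, its binding partner, which thus exceeded it in every library. Procr was below Thbd at 0 h (0.203) and 24 h (0.122) and above it at 4 h, at 1.39 (1.29 to 1.501). The inhibitor Serpinb2 was 8.36-fold below the protease Plau at 0 h (6.65 to 10.6) and 17.6-fold below at 24 h (12.6 to 25.1). At 4 h Serpinb2 was 3.63-fold above Plau (3.29 to 4.02). Plau over Plaur stayed between 0.0246 and 0.0282 in the 3 libraries.

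**Figure D3:**
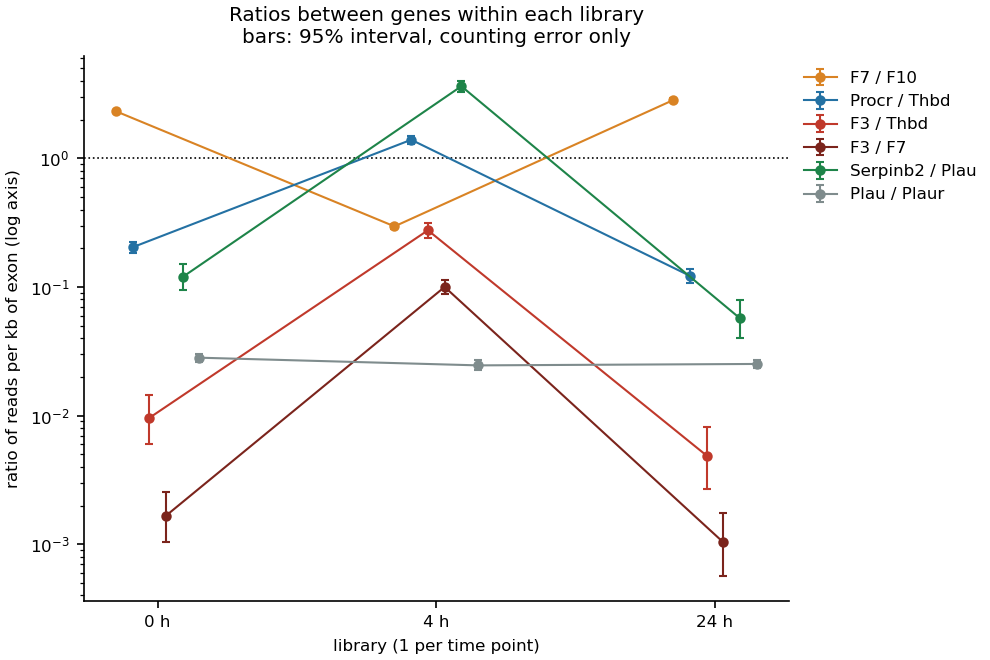
Each line joins the ratio of 2 genes' reads per kilobase of exon in the 0 h, 4 h and 24 h library (log axis, points shifted sideways for legibility, bars for the 95% counting interval). F7 over F10 crosses 1 downwards at 4 h, Serpinb2 over Plau and Procr over Thbd cross it upwards, and Plau over Plaur stays between 0.0246 and 0.0282.

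Of 53 further genes of coagulation and fibrinolysis, 34 were listed in the tables and 33 had a level at every time. At 4 h against 0 h 5 of these were at least 2-fold higher and 11 lower, beside the 15.2% and 14.3% of all genes given above, with a median log2 ratio of -0.35. The 5 higher of 33 are thus close to the background. At 24 h against 0 h 2 were higher and 7 lower (median -0.21), beside 4.95% and 9.1% of all genes. At 24 h against 4 h 8 were higher and 9 lower (median 0.03), beside 14.4% and 17.9%. The same shares are the background to the counts of the small groups below. The fibrinogen genes Fga, Fgb and Fgg, prothrombin (F2), plasminogen (Plg) and protein C (Proc) had no value in the tables.

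Among coagulation factors and the proteins that process them, 2 of 10 were higher at 4 h than at 0 h and 5 lower. F5, the cofactor of factor X, stood at 234, 3064 and 164 normalized counts, 13.1-fold higher at 4 h (11.5 to 14.9) and 18.6-fold lower at 24 h than at 4 h (16.1 to 21.6). F13a1, the fibrin crosslinking subunit, stood at 1922, 96859.5 and 6063, and it is also 1 of the 10 monocyte markers above. Tgm2, another transglutaminase, went the other way with 42546, 17574 and 10787, 2.42-fold lower at 4 h (2.38 to 2.47).

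Of 6 genes listed under inhibitors of coagulation, none was higher at 4 h and 1 was lower. The 1 lower was Gas6, a ligand of TAM receptors. Pros1, the protein S cofactor of protein C, stood at 6791, 3439 and 5728, a ratio of 0.506 (0.484 to 0.529) at 4 h that just misses the 2-fold limit. Proz, a cofactor of factor X inhibition, stood at 128, 239 and 67.4, and Anxa5, which covers procoagulant phospholipid, at 19822, 15580.1 and 20800.2.

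In plasminogen activation 1 of 11 further genes was higher at 4 h and 4 were lower. Serpinb8, a serpin related to PAI-2, stood at 151, 1683 and 302, 11.1-fold higher at 4 h (9.44 to 13.2). Anxa2, part of a cell surface receptor of plasminogen, stood at 49570.5, 38319 and 43626, and Lrp1, which clears protease and inhibitor complexes, at 66222, 53374 and 24154.

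The thrombin receptor F2r had few reads (19, 51 and 52) and was 3.65-fold higher at 4 h (2.12 to 6.54) and 2.41-fold higher at 24 h (1.40 to 4.31) than at 0 h. F2rl2, a related receptor, had 14, 11 and 21 reads. The thrombospondin receptors Cd36 (9881, 9628 and 9797) and Cd47 (10681, 8783 and 8737) differed by at most 1.22-fold between libraries. Thbs3, another thrombospondin, stood at 242, 50.8 and 134, 4.76-fold lower at 4 h (3.40 to 6.82), while Thbs1 was higher there.

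**Figure D4:**
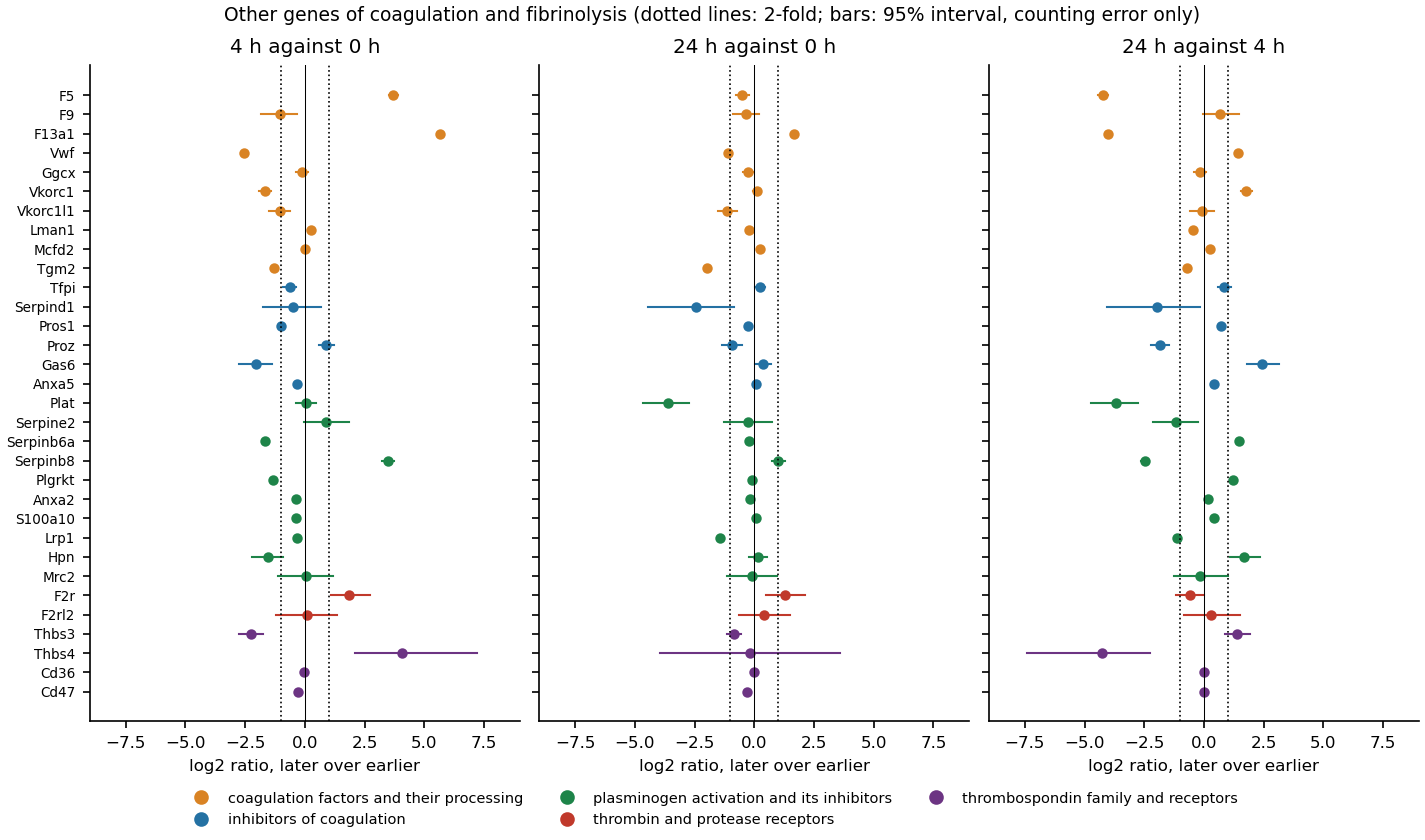
Points give the log2 ratio of normalized reads, later over earlier library, for other genes of the pathway with a level at both times, coloured by group, with bars for the 95% counting interval and dotted lines at 2-fold. At 4 h against 0 h F13a1, F5, Serpinb8 and, with a wide interval, Thbs4 lie far to the right, and Vwf, Thbs3 and Gas6 to the left.

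Genes whose course was most like that of a member were sought among 9334 others whose mean reached 100 normalized counts, by distance over the log2 ratios of 4 h and 24 h over 0 h. Few were near the genes that differed most. For Serpinb2 1 gene lay within 0.5, Sphk1, a kinase of sphingosine, at 24.3, 687 and 7.40 normalized counts, and for F3 2 did. The nearest to F3 were the growth factor gene Hbegf (81.2, 1015 and 46.0), the clotting cofactor F5, and the endothelin gene Edn1 (18.7, 308 and 15.6), at distances of 0.37, 0.44 and 0.58. Thbs1 had 53 genes within 0.5, led by Tagap at 388, 2070.32 and 270.3, and Procr had 84, led by Csf1, the macrophage growth factor gene, at 169.96, 636 and 110.1. F7 had 224, led by Klc4 and by Mcm3, a subunit of the replicative helicase, at 2111, 569.9 and 1867. F10 had 480, Thbd 1250, Plau 2203 and Plaur 2617, so near neighbours of these 4 say little. These distances rest on 3 libraries and leave counting error out. Hbegf, Edn1, Sphk1 and F3 itself reached the mean of 100 only through the 4 h library. Among genes low at 0 h and 24 h, the filter thus kept only those high at 4 h. For F3 the counting interval of 24 h over 0 h was 0.265 to 1.14, which is wide beside a limit of 0.5 on the log2 scale. The near neighbours of F3 and Serpinb2 therefore do not show a shared course beyond the high 4 h level.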

How the data were processed

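RNA of sorted mouse lung macrophages was sequenced at 3 times, 1 library each, grouped by the labels' time points. DESeq2 (no version) and the build mm10 are named per the submitters' processing notes. The sources used here do not name an aligner, a counter or an annotation. The deposited signal values are reads per gene divided by a size factor, and whole reads were recovered for 100% of values within 0.001 reads. The authors' deposited log2 fold changes are shrunken toward 0 and served as an alternative only. The deposited p-values, from 1 library per time point, were not used, and no count model was fitted for the same reason. The first value column of the 24 h against 0 h table is headed 4 h, but it holds the 0 h reads, with equal values for 12310 of 12310 genes. This 1 column was given to no sample.

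Each library's reads were scaled by a size factor (1.07, 0.788 and 1.22), the median of ratios over 12451 genes. Starts were shifted by 1 base, since the tables count them from 0. A gene was counted as higher or lower at a ratio of at least 2. Python 3.11.15, scipy 1.17.1 and, for TMM factors only, edgeR 4.0.16 were used, and the steps were tested on simulated counts. Alternatives were other scalings, the deposited fold changes, a 4-fold limit, a mean of at least 100 and a pseudocount of 1. The members and lists were chosen with earlier results of these data known, and the 6 gene pairs compared within libraries were chosen after their levels were seen. From each pathway group the text names the 2 genes with the widest ratio among means of at least 100 and the 2 with the highest level, and 1 gene so chosen is counted but not reported here by name. Of 53 listed pathway genes, 33 matched by symbol and 1 by a synonym at the same location. The marker lists hold genes of platelets, endothelium, lung epithelium, fibroblasts and mesothelium, hepatocytes, neutrophils, classical monocytes, alveolar macrophages and pan-macrophage or sorting genes. Of 5 fibroblast markers with a value, 2 were at least 2-fold higher at 4 h, and of 8 pan-macrophage and sorting genes 3 were.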

Additional observations from a re-analysis of the deposited data

How the results depend on the processing

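No member ratio past 2-fold changed direction under any scaling or pseudocount tried. Of the 27 ratios (9 genes in 3 comparisons), 25 stayed on the same side of the 2-fold limit with total reads, 26 with TMM factors, 24 with recentring on 80 ribosomal protein genes and 27 with a pseudocount of 1. Total reads put F10 at 1.89 at 4 h against 0 h, and total reads and TMM put Thbd at 2.45 and 2.02 at 24 h against 4 h, which makes 2 higher members there in both. Recentring shifts the median of all genes by -0.56 (24 h against 0 h) and -0.58 (24 h against 4 h), and total reads by -0.16, 0.17 and 0.33 in the 3 comparisons. Recentred, 4 members were lower at 24 h against 0 h (F3 at 0.380, Procr at 0.447 and Thbs1 at 0.483 besides Serpinb2). The split of all genes past 2-fold was 35.2% higher at 24 h against 0 h, which became 50.3% with total reads and 6.36% recentred. For 24 h against 4 h it was 44.6%, 64.9% and 15.5%.

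At a 4-fold limit 3 members were higher and 0 lower at 4 h against 0 h. At 24 h 0 were lower than at 0 h and 0 higher than at 4 h. By the deposited log2 fold change, and with a mean of at least 100, which leaves 7 members, 0 were lower at 24 h against 0 h. Of the other pathway genes, a 4-fold limit left 4 lower at 4 h against 0 h. At 24 h it left 0 higher and 3 lower than at 0 h and 1 higher and 5 lower than at 4 h. A mean of at least 100 left 3 higher at 4 h against 0 h. At 24 h it left 1 higher than at 0 h, and 5 higher and 5 lower than at 4 h. Recentring left 1 higher at 24 h than at 0 h and 3 higher than at 4 h, and the deposited fold changes 1 higher and 3 lower at 24 h against 0 h. A higher limit, or fewer genes, lowers such counts by construction, and the cause of the other shifts was not tested. No paired analysis was possible because each time point has 1 library. Depth limits F3 at 0 h and 24 h, with 22 and 14 reads.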

Other observations

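Values of 5 other genes of the pathway follow, chosen after they were seen. Vkorc1, the vitamin K reductase that clotting factors such as F7 and F10 need for their modification, stood at 679, 212 and 728 normalized counts at 0, 4 and 24 h, and Ggcx, the carboxylase that makes this modification, at 339.9, 314 and 280.2. Gas6, a vitamin K-dependent ligand of TAM receptors, had 124, 22 and 183 reads. Plat, the tissue-type plasminogen activator, had 120, 91 and 11 reads, so unlike the urokinase gene it was low at 24 h only, 12.4-fold below 0 h (6.69 to 25.5). Vwf, known from endothelium and platelets, stood at 3292, 564 and 1533, lowest at 4 h. Of the other 9 endothelial markers, Cdh5, Pecam1 and Kdr were highest at 4 h and the other 6 (Tek, Cldn5, Emcn, Ramp2, Tie1 and Egfl7) at 24 h. No replicate stands behind any of these values.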
